A study of Mus musculus with 12 samples.

Results

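Macrophages grown from mouse bone marrow were compared between 3 libraries labelled DKO, whose genotype label carries both Cbl-/- and Cbl-b -/-, and 3 libraries labelled WT (control). These are 6 of the 12 messenger RNA libraries of the study, chosen by their titles, and the other 6 are labelled Cbl-/- and Cbl-b-/-, with 3 libraries each. All cultures were kept to day 9 in DMEM with fetal bovine serum and L-cell supernatant, a source of the growth factor CSF-1, on uncoated plates, and adherent cells were taken for RNA. The sources used here do not give the strain, the sex and age of the mice, or the kind of allele or Cre. Nothing in the labels ties the replicates to separate animals, and what was pooled when RNA was mixed at equal concentrations is unclear. Each p-value thus reflects the spread between libraries alone, part or all of which may be technical. Because these are bulk samples, fewer cells of a type and less RNA per cell cannot be told apart.

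Cbl and Cbl-b are RING-finger ubiquitin ligases. They bind tyrosine kinases once these are active, the CSF-1 receptor included, and tag them and their partners with ubiquitin, which sends receptors to the lysosome and limits signalling. CSF-1 is the growth and survival factor of macrophages, the phagocytes that take up dying cells and microbes, present antigen and release cytokines. The comparison shows how the macrophage transcriptome differs where both ligases are labelled as removed.

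Cbl RNA was low in the DKO-labelled libraries and Cblb RNA was not. Cbl (chromosome 9, 44142976 to 44234049, GRCm38) was at 141, 143 and 136 CPM (counts scaled to library size) in WT 1 to 3 and at 40.97, 36.8 and 35.01 CPM in DKO 1 to 3 (log2 fold change -1.90, SE 0.06, adjusted p = 2.4e-12). All 3 DKO-labelled values lay below the WT values. Cblb (chromosome 16, 52031225 to 52208048) was at 62.2, 55.5 and 60.6 CPM in WT 1 to 3 and at 73.4, 67.98 and 73.7 CPM in DKO 1 to 3 (log2 fold change 0.27, SE 0.06, adjusted p = 0.0027). Cblb transcript was thus slightly higher in the libraries labelled DKO, so this count does not check the Cbl-b part of their label, and each direction below is that of the libraries so labelled. The Gt(ROSA)26Sor transcript, made from a locus often used to hold transgenes, was at 0.238, 0.231 and 0.107 CPM in WT 1 to 3 and at 2.31, 2.29 and 3.32 CPM in DKO 1 to 3 (log2 fold change 3.70, SE 0.38, adjusted p = 1.2e-06). It was chosen after its values were seen. The 4 Y-linked genes listed, Ddx3y, Uty, Kdm5d and Eif2s3y, had reads in all 12 libraries.

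The libraries held 27822954 to 43946503 counts. DKO 3 stood apart from DKO 1 and DKO 2: the chi-square of counts per degree of freedom was 10.2 between DKO 1 and DKO 2, but 44.7 and 55.3 between each of them and DKO 3, against 5.21 to 12.3 among the WT libraries. Against the other DKO-labelled libraries, the median log2 deviation of DKO 3 went from 0.27 in the lowest of 4 equal groups of genes by GC content to -0.25 in the highest. Results that rest on DKO 3 are given with and without it. Of the genes that define macrophages, Lyz2, Cd68 and Itgam were high in both groups. They were at 15674 ± 815, 1268 ± 40.7 and 705 ± 44.3 CPM in WT and at 14078 ± 1675, 1148 ± 112 and 694 ± 41.2 CPM in DKO-labelled libraries (SD, n = 3 each), and none of them passed the test. Adgre1, which encodes F4/80, fell by 0.37 on the log2 scale. Others that define macrophages also moved: Csf1r and Mertk fell and Cd14 rose, as given below. Of the lists of other cell types, T cells had 4 of 12 markers tested, B cells 3 of 10, and NK and erythroid cells none. Lyz2, Cd68, Itgam and Adgre1 were chosen after their values were seen.

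Of 12671 genes tested, 4485 (35.4%) passed an adjusted p of 0.05 between the DKO-labelled and the WT libraries, 2423 of them higher (19.1% of those tested) and 2062 lower (16.3%). Most of these differences were small, and 3019 of the called genes (67.3%) differed by less than 1.5-fold. At least 2-fold, 520 genes were higher (4.10%) and 279 lower (2.20%), together 6.31%, and at least 4-fold, 191 were higher and 54 lower. In 4309 called genes (96.1%) the 3 DKO-labelled values lay outside the range of the 3 WT values, against 46.5% of all tested genes. The median log2 fold change over all tested genes was -0.003, with quartiles at -0.20 and 0.20. Of the tested genes, 285 passed the filter on low counts only through the DKO-labelled libraries, and 97 of these were called, all at least 2-fold higher. With library totals as the only scaling, 1773 genes were higher and 2873 lower, so 38.2% of the calls were upward in place of 54.0%. That scaling moved the median of all genes to -0.07, and the named genes that were called kept their direction under it. In the text below, a rise, a fall or a number in parentheses after a gene is its log2 fold change, and a list's median is the median of these. Over the named genes that were called, SE ranged from 0.05 to 0.87 with a median of 0.09.

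**Figure D1:**
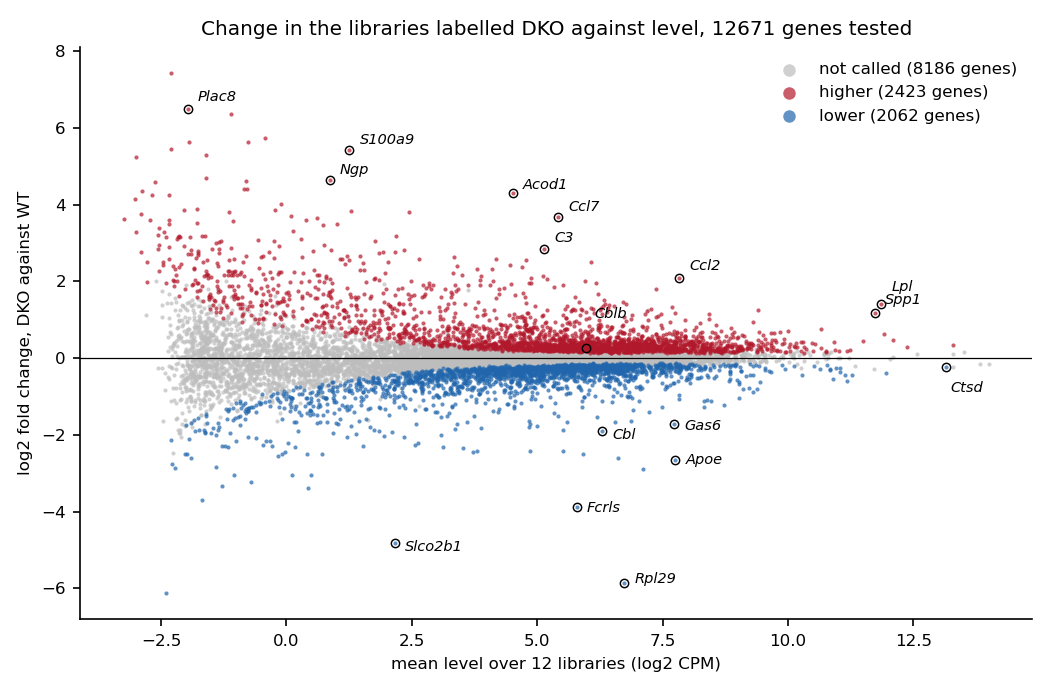
Each point is a tested gene, with its mean log2 CPM over the 12 libraries on the x axis and its log2 fold change, DKO-labelled against WT, on the y axis, and some named genes are circled. Among genes whose mean log2 CPM is 1 or more, Rpl29 lies lowest at -5.87, and S100a9 and Acod1 lie highest at 5.43 and 4.30.

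The 45 lists of gene functions held 1322 genes, of which 1229 were tested. Of these, 588 were called higher and 178 lower, beside 2423 and 2062 of all 12671 tested genes. Each list's count below is to be read beside the 19.1% of all tested genes called higher and the 16.3% called lower. The lists with the highest medians were those of neutrophil granule genes (1.97), guanylate-binding proteins (1.88), monocyte and progenitor genes (1.64), chemokine ligands (1.25) and antiviral interferon-stimulated genes (1.20). This order rests in part on members that passed the filter on low counts only through the DKO-labelled libraries, and without them the medians of these lists were 0.72, 1.75, 0.35, 1.21 and 1.16. The lowest median was that of resident and microglia-type macrophage genes, at -0.81.

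**Figure D2:**
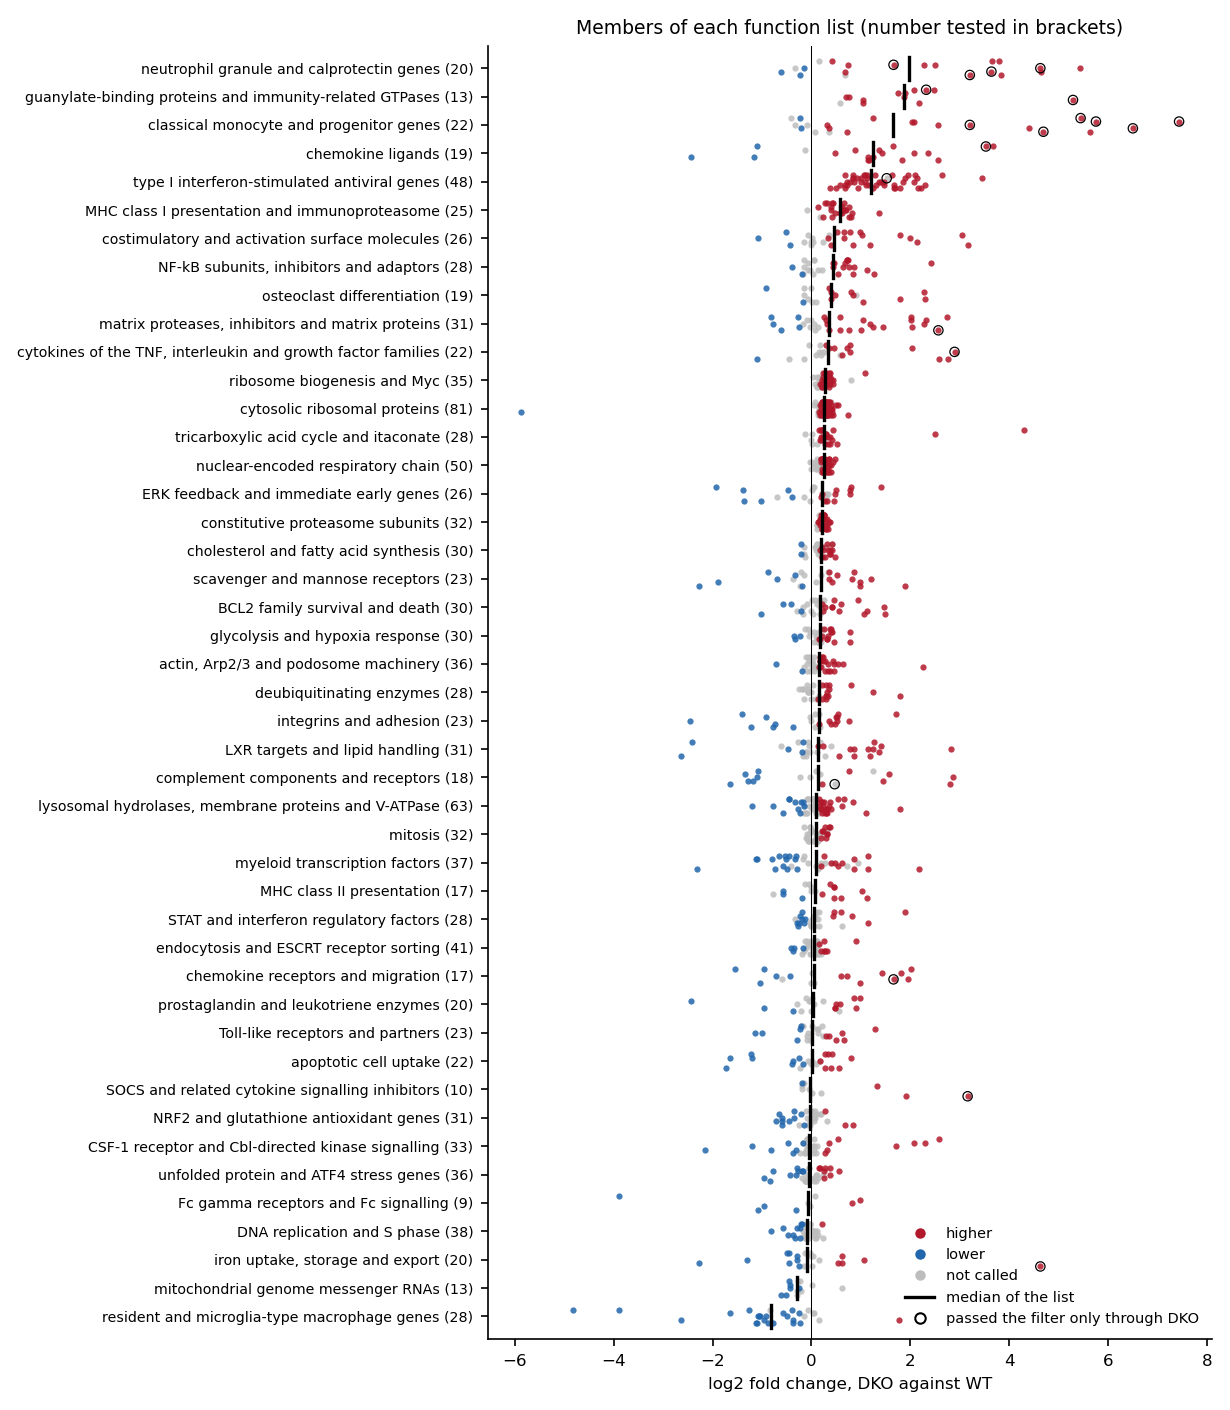
Each row is a list of genes, each point a tested member placed by its log2 fold change, DKO-labelled against WT, and each bar the list's median. Circled members passed the filter on low counts only through the DKO-labelled libraries; the resident macrophage list has the lowest median at -0.81 and the neutrophil granule list is at 1.97, or 0.72 without its circled members.

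Interferon-stimulated genes were higher in the DKO-labelled libraries almost without exception. These genes encode antiviral proteins and are switched on when transcription factors activated through interferon receptors bind interferon response elements in their promoters. Of the 48 tested antiviral genes, 47 rose and none fell, with a median log2 fold change of 1.20, beside 19.1% of all tested genes called higher. Slfn1 (1.52) did not pass the test. Of 13 tested guanylate-binding proteins and immunity-related GTPases, which attack the vacuoles of intracellular microbes, 12 rose, with a median of 1.88 (1.75 without Tgtp2 and Gbp6, which passed the filter only through the DKO-labelled libraries). Gbp8 (0.57) did not pass the test; Slfn1 and Gbp8 were chosen after their values were seen. Guanylate-binding proteins have similar sequences and lie side by side, and the sources used here do not give how reads that match several genes were counted, so single members are uncertain.

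The promoters of 4 of these genes are shown because each holds an interferon response element, searched as GAAA, any 2 bases, GAAA on either strand. They are the RefSeq promoters of build GRCm38.p6, 250 bases before to 50 after the start, on the strand of the gene, and capitals mark the element, which reads here as TTTC blocks on the strand printed.
Gbp2 (chr3:142620413-142620712, plus strand): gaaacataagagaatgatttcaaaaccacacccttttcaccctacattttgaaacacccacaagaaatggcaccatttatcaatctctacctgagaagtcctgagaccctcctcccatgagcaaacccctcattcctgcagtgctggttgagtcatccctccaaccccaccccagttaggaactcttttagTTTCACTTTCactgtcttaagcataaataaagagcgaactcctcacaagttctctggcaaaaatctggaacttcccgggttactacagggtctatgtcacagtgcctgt
Gbp7 (chr3:142530086-142530385, plus strand): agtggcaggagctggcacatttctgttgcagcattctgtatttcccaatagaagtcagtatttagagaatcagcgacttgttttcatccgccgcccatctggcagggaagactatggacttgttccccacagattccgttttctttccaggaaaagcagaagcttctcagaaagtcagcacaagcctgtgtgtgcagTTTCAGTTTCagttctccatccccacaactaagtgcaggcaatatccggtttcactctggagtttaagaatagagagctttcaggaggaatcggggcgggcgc
Gbp3 (chr3:142559794-142560093, plus strand): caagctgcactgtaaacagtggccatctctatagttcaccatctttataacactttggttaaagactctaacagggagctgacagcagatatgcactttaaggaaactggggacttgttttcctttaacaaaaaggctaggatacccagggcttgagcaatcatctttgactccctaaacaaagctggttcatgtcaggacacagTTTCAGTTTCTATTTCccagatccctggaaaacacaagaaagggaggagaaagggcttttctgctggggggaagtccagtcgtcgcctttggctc
Ddx58 (chr4:40239776-40240075, minus strand): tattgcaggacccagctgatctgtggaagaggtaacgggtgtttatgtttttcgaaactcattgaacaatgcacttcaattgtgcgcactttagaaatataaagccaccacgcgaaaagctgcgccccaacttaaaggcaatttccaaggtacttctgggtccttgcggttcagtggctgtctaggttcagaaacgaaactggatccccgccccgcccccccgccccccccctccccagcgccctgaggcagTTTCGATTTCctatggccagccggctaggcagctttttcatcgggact
The element begins 59 bases before the start in Gbp2, 53 in Gbp7 and 45 in Gbp3, where 2 overlapping copies share a block, and 2 bases after it in Ddx58. Over the first promoter of every gene in the RefSeq table, 943 of 27025 (3.49%) hold it. It was in 8 of the 9 promoters matched for the guanylate-binding and GTPase list and in 16 of the 35 matched for the antiviral list. Because only 35 of 48 and 9 of 13 tested members had a promoter in the table, under 80% of each list, a comparison of these shares is void. A match describes the sequence and does not show binding.

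Gbp2 was at 6.26, 5.82 and 7.11 CPM in WT 1 to 3 and at 24.4, 30.4 and 31.4 CPM in DKO 1 to 3 (log2 fold change 2.17, SE 0.13, adjusted p = 1.8e-09). Ddx58 (chromosome 4, 40203773 to 40239828), which encodes the RNA sensor RIG-I, was at 62.5, 58.6 and 67.1 CPM in WT 1 to 3 and at 141, 152 and 169.8 CPM in DKO 1 to 3 (log2 fold change 1.30, SE 0.09, adjusted p = 1.6e-08). In both genes the DKO-labelled values lay above every WT value. Oasl1, Parp14 and Slfn2 rose by 2.22, 1.10 and 0.94 on the log2 scale, and Usp18, which removes the ubiquitin-like protein ISG15 and damps interferon receptor signalling, by 1.80. Zbp1, a sensor of nucleic acids in the Z form that can start necroptosis, went from 5.92 ± 1.58 to 36.3 ± 2.92 CPM (SD, n = 3 each; log2 fold change 2.63). Isg15 itself rose by 2.14 and Ifi44 by 1.63; both were chosen after their values were seen. Gbp7, Gbp3 and Irgm1 rose by 1.89, 1.88 and 1.05, and Ifi206 and Ifit1bl1, in neither list, were among the 20 largest increases at 2.67 and 2.77.

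Genes of the transcription factors, kinases and receptors of the interferon response moved in both directions. Of the 28 tested STAT and interferon regulatory factor genes, with their kinases and receptors, 6 rose and 8 fell. The share that rose, 21.4%, was near the 19.1% of all tested genes, and 28.6% fell beside 16.3%. Irf7, which amplifies type I interferon production, was at 28.5, 26.5 and 39.9 CPM in WT 1 to 3 and at 116, 129 and 106 CPM in DKO 1 to 3 (log2 fold change 1.90, SE 0.18, adjusted p = 8.7e-06), with no overlap of the groups. Stat2 and Irf1 rose by 0.81 and 0.45, and Irf9 and Jak3 by 0.44 and 0.59. The members that fell were Stat5b (-0.25), Irf3 (-0.22), Irf8 (-0.29), the receptor chains Ifnar2 (-0.19), Ifngr1 (-0.16), Il10ra (-0.27) and Il10rb (-0.14), and Tmem173, which encodes STING (-0.19). Irf9, Jak3 and these 8 were chosen after their values were seen. The count that fell ranged from 3 to 5 without WT 1, WT 2, DKO 1 or DKO 3, with the DKO-labelled and WT libraries alone and with a weight per genotype, and the count that rose was 10 without DKO 3 or with offsets corrected for GC content. Ifnb1, which encodes interferon beta, was removed as too low to test.

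Most chemokine ligands, the secreted proteins that draw leukocytes into tissue, were higher in the DKO-labelled libraries. Of 19 tested, 15 rose and 3 fell, with a median of 1.25. Ccl7, a monocyte attractant, was at 15.4, 21.1 and 15.5 CPM in WT 1 to 3 and at 189, 214 and 261 CPM in DKO 1 to 3 (log2 fold change 3.67, SE 0.17, adjusted p = 6.5e-09). Ccl2 (chromosome 11, 82035571 to 82037453), the main ligand of the receptor CCR2, was at 128, 153 and 129 and at 559, 562 and 614 CPM in the same order (log2 fold change 2.08, SE 0.09, adjusted p = 2.7e-11). For both, the lowest DKO-labelled value was above the highest WT value. Cxcl2, which draws neutrophils, rose by 1.83 and Ccl9 by 1.25, from 482 ± 38.2 to 1144 ± 188 CPM. Cxcl10, a target of interferon, rose by 2.36 and was chosen after its values were seen. The 3 that fell were Cxcl14 (89.00 ± 1.23 to 16.6 ± 1.31 CPM, log2 fold change -2.43), Pf4 (-1.11) and Ppbp (-1.16). Ppbp did not pass the test without WT 2, WT 3 or DKO 1 (adjusted p = 0.098, 0.056 and 0.104 in edgeR) or with limma voom and a weight per genotype (adjusted p = 0.155). Pf4 and Ppbp are also members of the platelet marker list, whose summed level was lower in the DKO-labelled libraries.

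Of 22 tested cytokines of the TNF, interleukin and growth factor families, 11 rose and 1 fell. Csf1 (chromosome 3, 107741048 to 107760469), the ligand of the CSF-1 receptor, was at 1.67, 3.03 and 3.18 CPM in WT 1 to 3 and at 17.98, 17.9 and 16.5 CPM in DKO 1 to 3 (log2 fold change 2.75, SE 0.19, adjusted p = 1.2e-08), and the groups did not overlap. Il1rn, the antagonist of the interleukin-1 receptor, rose by 2.03, and Tnfsf10, which encodes the death ligand TRAIL, by 2.58. Tnf rose by 0.73 and was chosen after its values were seen. Tnfsf9, the ligand of 4-1BB, was the member that fell (-1.11). Il1b, Il10 and Tgfb1 did not pass the test, with log2 fold changes of 0.57, 0.18 and 0.09 and were picked once their values were known.

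NF-kB is the main transcription factor of inflammation, and many genes for its inhibitors and adaptors are themselves induced by it. Of 28 tested, 15 rose and 2 fell (5 under scaling by totals), with a median of 0.43. Traf1, an adaptor of TNF receptors, was at 4.31, 4.03 and 6.86 CPM in WT 1 to 3 and at 27.2, 29.04 and 23.3 CPM in DKO 1 to 3 (log2 fold change 2.41, SE 0.16, adjusted p = 9.3e-09). All 3 DKO-labelled values were above the WT values. The kinase gene Ikbke rose by 1.25, Tnip1, a partner of the inhibitor A20, by 0.87, and Birc3, an anti-apoptotic ubiquitin ligase, by 0.73. Nfkb1, Rel and Rela did not pass the test (0.02, 0.05 and -0.04), while Nfkb2 and Relb rose by 0.63 and 0.67. The members that fell were Ikbkg (-0.38) and Bcl10 (-0.19). Nfkb1, Rel, Rela, Nfkb2, Relb, Ikbkg and Bcl10 were chosen after their values were seen.

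Toll-like receptor genes, whose products sense microbes, moved in both directions. Of 23 tested genes for these receptors and their partners, 6 rose and 5 fell, shares of 26.1% and 21.7% that were near the 19.1% and 16.3% of all tested genes. Tlr2, a surface receptor for bacterial lipoproteins, went from 88.8 ± 2.16 to 215 ± 14.8 CPM (log2 fold change 1.28, SE 0.07), and the surface proteins Cd14 and Cd180 rose by 0.66 and 0.62. Among the endosomal receptors of nucleic acids, Tlr9 fell (-1.14), as did Tlr7 (-0.24) and Tlr8 (-0.30), while Tlr3 rose (0.50). Tlr4, which senses lipopolysaccharide, did not pass the test (0.13). Tlr7, Tlr8, Tlr3 and Tlr4 were chosen after their values were seen. Under scaling by totals 8 members fell.

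Of 26 tested costimulatory and activation surface genes, 15 rose and 3 fell, with a median of 0.45. Cd69, an early activation antigen, was at 1.33, 1.44 and 1.07 CPM in WT 1 to 3 and at 9.59, 9.80 and 12.7 CPM in DKO 1 to 3 (log2 fold change 3.05, SE 0.20, adjusted p = 6.1e-09). Cd274, which encodes the inhibitory ligand PD-L1, was at 10.3, 8.98 and 11.2 and at 39.3, 38.8 and 43.3 CPM in the same order (log2 fold change 2.001, SE 0.09, adjusted p = 1.7e-10). Neither gene overlapped between the groups. Icam1, an adhesion ligand for T cells, rose by 1.03 and the TNF receptor gene Tnfrsf1b by 0.66. The members that fell were Cd83 (-1.08), Icosl (-0.44) and Trem1 (-0.51), chosen after their values were seen.

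MHC class I genes rose broadly in the DKO-labelled libraries. The class I pathway loads peptides cut by the proteasome onto surface molecules, and 22 of its 25 tested genes rose while none fell, with a median of 0.57. B2m, the invariant light chain, was at 1399, 1349 and 1436 CPM in WT 1 to 3 and at 2041, 2291 and 2765 CPM in DKO 1 to 3 (log2 fold change 0.76, SE 0.09, adjusted p = 5.7e-06). Each DKO-labelled value was above each WT value. Nlrc5, the transactivator of class I genes, rose by 0.76, and the proteasome genes Psme2 and Psmb8 by 0.80 and 0.66. H2-T22 rose by 0.69, though class I genes are near-identical copies and single members are uncertain. Of 17 tested class II genes, 8 rose and 3 fell (5 rose and 1 fell without WT 2, and 6 rose and 1 fell without WT 1). H2-Ab1 and Cd74, a class II chain and the invariant chain, rose by 0.60 and 0.44, and Ctsl, a protease that trims the invariant chain, by 0.37. Lgmn, which encodes a lysosomal protease, fell from 582 ± 18.8 to 390.0 ± 11.5 CPM (-0.58).

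Genes of the CSF-1 receptor and of the kinases that Cbl proteins act on moved in both directions. Of 33 tested, 8 rose and 7 fell, together 45.5%, beside 35.4% of all tested genes called. Under scaling by totals 11 fell, and 12 fell with offsets corrected for GC content. Csf1r (chromosome 18, 61100598 to 61132149) was at 2283, 2295 and 2041 CPM in WT 1 to 3 and at 1728, 1789 and 1611 CPM in DKO 1 to 3 (log2 fold change -0.37, SE 0.06, adjusted p = 1.3e-04). The DKO-labelled values were all below the WT values. Met, the hepatocyte growth factor receptor, was at 3.05, 3.46 and 3.86 and at 20.7, 17.7 and 23.1 CPM in the same order (log2 fold change 2.58, SE 0.14, adjusted p = 6.9e-10). The Src-family kinase genes Src and Fgr rose by 2.29 and 1.70, from 1.43 ± 0.210 and 15.3 ± 0.665 CPM in WT. Fyn and Lyn, of the same family, did not pass the test (0.06 and -0.13), and Mertk fell (-1.21); these 3 were chosen after their values were seen.

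Feedback inhibitors of the ERK pathway, which growth factor receptors switch on, did not move as 1 group. Of 26 tested feedback and immediate early genes, 11 rose (7 with limma voom and a weight per genotype) and 6 fell. Dusp6, a phosphatase of ERK, was at 160.2, 184 and 135 CPM in WT 1 to 3 and at 62.4, 59.7 and 64.7 CPM in DKO 1 to 3 (log2 fold change -1.36, SE 0.09, adjusted p = 2.1e-08). Etv5, a transcription factor downstream of ERK, was at 147, 155 and 140.0 and at 73.4, 76.9 and 66.7 CPM in the same order (log2 fold change -1.03, SE 0.07, adjusted p = 6.3e-09). In both, all DKO-labelled values were below the WT values. Fosb fell by 1.93, while Egr2, another immediate early gene, rose by 1.41. Spry2, an inhibitor of receptor signalling, fell by 0.48 and was chosen after its values were seen.

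Among inhibitors of cytokine signalling, Socs3, which blocks receptors of the interleukin-6 family, was at 5.52, 6.13 and 5.07 CPM in WT 1 to 3 and at 20.3, 24.5 and 18.7 CPM in DKO 1 to 3 (log2 fold change 1.92, SE 0.11, adjusted p = 1.6e-09). Every DKO-labelled value was above the WT values. Of 10 tested members of the list, 3 rose and 1 fell, while 3 fell under scaling by totals and 1 rose among members with at least 5 CPM in 3 libraries. Socs1, which blocks JAK kinases, rose by 1.32 from a level of 1.35 ± 0.162 CPM, and Cish went from 0.0482 ± 0.0229 to 0.440 ± 0.0600 CPM. Cish passed the filter only through the DKO-labelled libraries. Of 28 tested deubiquitinating enzymes, 14 rose and none fell, with a median of 0.15, but 6 rose and 3 fell under scaling by totals, and the count that rose was 8 with the DKO-labelled and WT libraries alone, and 8, 7 and 9 without WT 2, WT 3 and DKO 3. Without DKO 3, 2 fell. Tnfaip3, which encodes the NF-kB inhibitor A20, rose from 24.7 ± 3.25 to 58.3 ± 2.76 CPM (1.24), and Uchl1 and Otulin rose by 0.81 and 0.33.

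Genes typical of resident macrophages and microglia were lower in the DKO-labelled libraries. Of 28 tested, 21 fell and 1 (Sparc, 1.76) rose, with a median of -0.81, beside 16.3% of all tested genes called lower. Apoe (chromosome 7, 19696109 to 19699188), which carries lipids out of the cell, was at 367, 345 and 306 CPM in WT 1 to 3 and at 57.1, 57.3 and 48.6 CPM in DKO 1 to 3 (log2 fold change -2.64, SE 0.08, adjusted p = 5.9e-13). Fcrls, an Fc-receptor-like gene of microglia, was at 128, 142 and 95.1 and at 7.41, 7.63 and 9.43 CPM in the same order (log2 fold change -3.89, SE 0.14, adjusted p = 3.6e-11). Cx3cr1, the fractalkine receptor, was at 734, 688 and 655 and at 327, 324 and 359 CPM (log2 fold change -1.04, SE 0.06, adjusted p = 9.7e-10). In all 3 genes the groups did not overlap. The transporter gene Slco2b1 went from 12.8 ± 1.44 to 0.449 ± 0.170 CPM, the largest named decrease after Rpl29 (-4.82). Maf, a transcription factor of mature macrophages, fell by 1.13; Maf and Sparc were chosen after their values were seen. Without DKO 3, 20 members fell. Sparc did not pass the test without WT 1, WT 2, DKO 1, DKO 2 or DKO 3. It also missed the threshold with DESeq2, a replicate block, a weight per genotype or no filter on low counts.

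Several receptors for uptake fell, while others rose. Mrc1, the mannose receptor CD206, was at 50.99, 72.00 and 44.5 CPM in WT 1 to 3 and at 14.6, 14.6 and 16.3 CPM in DKO 1 to 3 (log2 fold change -1.88, SE 0.16, adjusted p = 7.3e-07). Cd163, the receptor for haemoglobin bound to haptoglobin, was at 9.52, 12.98 and 8.68 and at 2.23, 2.48 and 1.79 CPM in the same order (log2 fold change -2.27, SE 0.18, adjusted p = 5.9e-08). Both were lower in every DKO-labelled library than in any WT library. Cd36, a receptor for oxidised lipoprotein, rose by 0.86 and the secreted Cd5l by 0.98. Of 23 tested scavenger and mannose receptor genes, 10 rose and 6 fell. Of 9 tested genes of Fc gamma receptors and Fc signalling, 2 rose and 4 fell. The activating receptor gene Fcgr3 fell by 0.97 and Fcgrt, the neonatal Fc receptor, by 1.07, while Fcgr4 rose by 0.98. Fcrls, given above, has the lowest value in this list, and neither it nor Fcgrt is an Fc gamma receptor.

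For the uptake of apoptotic cells, 8 of 22 tested genes rose and 8 fell. Gas6, which bridges phosphatidylserine on dying cells to the receptors Axl and MerTK, was at 327, 353 and 254 CPM in WT 1 to 3 and at 101, 102 and 80.9 CPM in DKO 1 to 3 (log2 fold change -1.72, SE 0.11, adjusted p = 1.4e-08). Itgb5, the integrin beta 5 chain, was at 588, 602 and 486 and at 249, 254 and 219 CPM in the same order (log2 fold change -1.21, SE 0.08, adjusted p = 6.1e-09). The groups did not overlap in either gene. Tgm2, a transglutaminase, rose by 0.79. Axl did not pass the test (0.09) and was chosen after its values were seen.

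Complement genes split between the C1q chains and C3. C3, the central component that coats targets for phagocytosis, was at 13.7, 15.5 and 14.2 CPM in WT 1 to 3 and at 105, 107 and 102 CPM in DKO 1 to 3 (log2 fold change 2.85, SE 0.14, adjusted p = 7.1e-10). C1qa and C1qb, chains of the molecule that starts the classical pathway, fell by 1.64 and 1.11, from 147 ± 24.1 and 447 ± 46.2 CPM to 47.4 ± 6.70 and 207 ± 13.8 CPM. None of these 3 overlapped between the groups. Over the list, 6 of 18 tested members rose and 6 fell; the median was 0.13, and -0.25 with 3 rising over the members with at least 5 CPM in 3 libraries. Of 20 tested prostaglandin and leukotriene genes, 7 rose and 3 fell (5 fell without DKO 3). Hpgd, which breaks prostaglandins down, fell from 64.3 ± 1.32 to 11.9 ± 2.73 CPM (-2.43), Ltc4s by 0.95, and the prostaglandin receptor genes Ptger4 and Ptgir rose by 0.86 and 0.57.

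Of 17 tested chemokine receptor and migration genes, 8 rose and 5 fell. Cxcr4, the receptor of Cxcl12, was at 108, 105 and 124 CPM in WT 1 to 3 and at 39.1, 41.7 and 35.04 CPM in DKO 1 to 3 (log2 fold change -1.54, SE 0.09, adjusted p = 2.0e-09). The values did not overlap between the groups. Ccr1 rose by 0.98. Of 37 tested myeloid transcription factors, 11 rose (29.7%, beside 19.1% of all tested genes) and 14 fell (37.8%, beside 16.3%). Spi1, which encodes PU.1, did not pass the test (0.14). Id3, an inhibitor of helix-loop-helix factors, fell by 1.11, Tox2 by 2.32 and Cebpa by 0.73, while Nr1h3, the oxysterol receptor LXR alpha, rose by 1.15. Spi1 and Cebpa were chosen after their values were seen.

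Many genes of classical monocytes, progenitors and neutrophil granules were near 0 in WT and higher in the DKO-labelled libraries. S100a9 (chromosome 3, 90692632 to 90695721), a chain of calprotectin, was at 0.785, 0.616 and 0.750 CPM in WT 1 to 3 and at 26.9, 26.7 and 39.3 CPM in DKO 1 to 3 (log2 fold change 5.43, SE 0.22, adjusted p = 1.9e-11). S100a8, the other chain, was at 1.17, 1.05 and 1.25 and at 13.6, 12.4 and 23.3 CPM in the same order (log2 fold change 3.84, SE 0.24, adjusted p = 4.3e-09). Vcan, the proteoglycan versican of classical monocytes, was at 12.5, 13.6 and 12.3 and at 72.9, 66.6 and 86.6 CPM (log2 fold change 2.56, SE 0.10, adjusted p = 1.8e-11). All DKO-labelled values of these genes were above the WT values. Chil3, a chitinase-like protein, had 9, 12 and 9 reads in WT 1 to 3 and 479, 396 and 790 in DKO 1 to 3; Ly6c2 had 6, 7 and 0 and 189, 208 and 257 reads in the same order. The primary granule proteases Prtn3 and Ctsg had 1, 0 and 0 and 3, 5 and 5 reads in WT 1 to 3, against 57, 107 and 71 and 103, 112 and 131 reads in DKO 1 to 3. Ngp and Ltf, secondary granule genes, went from 0.572 ± 0.214 and 0.771 ± 0.289 to 14.8 ± 1.20 and 9.83 ± 0.827 CPM. Ccr2, the receptor by which monocytes leave the marrow, was well expressed in both groups and rose by 0.73. Chil3, Prtn3 and Ctsg passed the filter on low counts only through the DKO-labelled libraries. Reads in those libraries were thus in part a condition of their being tested. Prtn3, Ctsg and Ccr2 were chosen after their values were seen.

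Over the monocyte and progenitor list, 15 of 22 tested members rose and 2 fell, with a median of 1.64. Of the 22, 6 members, Cd177, Ctsg, Chil3, Plac8 and Prtn3 among them, passed the filter on low counts only through the DKO-labelled libraries, and without the 6 the median was 0.35. Over the neutrophil granule list, 14 of 20 tested members rose and 3 fell, with a median of 1.97, or 0.72 without the 4 of that kind (Fpr1, Cd177, Stfa2l1 and Lcn2). Both counts take in the members that passed only through the DKO-labelled libraries. With members of at least 5 CPM in 3 libraries, 8 of 13 and 9 of 14 rose, but the DKO-labelled libraries alone can meet that filter. Markers of other cell types differed between these groups, most of them upward and those of platelets downward. The counts called below are to be read beside the 19.1% of all tested genes called higher and the 16.3% called lower. Of those tested, 2 neutrophil, 1 mast cell, 1 dendritic cell and 2 stromal markers passed the filter only through the DKO-labelled libraries. The sums below also take in markers removed as low: 1 neutrophil, 5 dendritic cell, 3 stromal, 1 eosinophil and 1 platelet marker. Neutrophil markers summed to 41.1 to 49.5 CPM in WT and 91.3 to 118 CPM in DKO-labelled libraries. Of 14, 8 were tested, with 6 called higher and 1 lower, and these 8 are also members of the neutrophil granule list. Camp, Ly6g, Elane, Mpo and Retnlg were not analysed here. Mast cell and basophil markers (3 of 11 tested, all called higher) summed to 0.786 to 0.999 and 3.47 to 4.18 CPM. Dendritic cell markers (6 of 14 tested, 4 called higher) summed to 2.46 to 3.36 and 6.86 to 8.72 CPM. Stromal and endothelial markers (8 of 14 tested, 5 called higher) summed to 30.1 to 35.5 and 41.6 to 49.3 CPM. Eosinophil markers (2 of 8 tested, both called higher) summed to 1.26 to 1.55 and 3.88 to 5.70 CPM. Megakaryocyte and platelet markers summed to 149.99 to 153 CPM in WT and 92.4 to 111 CPM in DKO-labelled libraries. Of 10, 5 were tested, with 3 called lower and none higher, and 1 was called lower without WT 3. The part of such cells in the results was not tested.

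Matrix genes and the proteins that remodel matrix mostly rose. Of 31 tested, 19 rose and 5 fell, with a median of 0.36. Mmp14, a membrane-bound metalloprotease, was at 1.69, 1.85 and 1.11 CPM in WT 1 to 3 and at 10.4, 10.8 and 10.3 CPM in DKO 1 to 3 (log2 fold change 2.73, SE 0.20, adjusted p = 3.1e-08). Spp1, which encodes osteopontin, was at 3222, 2735 and 3491 and at 6243, 6684 and 8504 CPM in the same order (log2 fold change 1.18, SE 0.11, adjusted p = 8.8e-07). The DKO-labelled values were above the WT values in both. Sdc1, a cell-surface proteoglycan, and Timp2, an inhibitor of metalloproteases, rose by 2.01 and 1.004. Plau, the urokinase, fell from 1002 ± 134 to 570.4 ± 4.26 CPM (-0.81).

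Actin genes rose by small amounts, and integrins moved both ways. Of 36 tested actin, Arp2/3 and podosome genes, 19 rose and 2 fell (5 under scaling by totals), with a median of 0.16. Actb went from 8941 ± 355 to 11322 ± 891 CPM (0.34), Actg1 rose by 0.45, the filament protein gene Vim by 0.63 and the GTPase gene Rac2 by 0.44, while Sh3pxd2a, a scaffold of podosomes, fell by 0.73. Of 23 tested integrin and adhesion genes, 10 rose and 7 fell. Itga8 was at 22.1, 24.9 and 17.6 CPM in WT 1 to 3 and at 4.24, 3.53 and 4.001 CPM in DKO 1 to 3 (log2 fold change -2.46, SE 0.14, adjusted p = 1.7e-09), with separate groups. Itga6 and Itgal, chains of a laminin receptor and of LFA-1, fell by 0.78 and 0.73. Of 19 tested osteoclast genes, 10 rose and 2 fell (4 under scaling by totals or with offsets corrected for GC content). Ctsk, the bone-degrading cathepsin K, rose by 1.80 and Atp6v0d2, needed for cell fusion, by 0.83, while the integrin gene Itgb3 fell by 0.93.

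Lpl, the lipase that frees fatty acids from lipoproteins, had the largest gain in CPM of any named gene. It was at 3147, 2461 and 4462 CPM in WT 1 to 3 and at 8119.7, 7931 and 10749.8 CPM in DKO 1 to 3 (log2 fold change 1.41, SE 0.24, adjusted p = 0.0014). The DKO-labelled values were all above those of WT. Of 31 tested genes of lipid handling and targets of the oxysterol receptor LXR, 13 rose and 5 fell. The cholesterol exporter gene Abcg1 rose by 1.25, the desaturase gene Scd2 by 1.26 and Acsl1, which activates fatty acids, by 1.37. Ch25h, which makes 25-hydroxycholesterol, fell from 23.5 ± 5.37 to 4.42 ± 0.421 CPM (-2.41), and Apoe fell as given above. Without WT 1, WT 3 or DKO 1, or with the DKO-labelled and WT libraries alone, 3 members fell. Of 30 tested genes of cholesterol and fatty acid synthesis, 13 rose and 2 fell, with small changes such as 0.38 for Sqle; under scaling by totals 8 rose and 4 fell.

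Central metabolism rose by small amounts, with a pair of large exceptions. Acod1, which makes itaconate from an intermediate of the tricarboxylic acid cycle in activated macrophages, was at 5.42, 5.47 and 4.79 CPM in WT 1 to 3 and at 97.3, 105 and 107 CPM in DKO 1 to 3 (log2 fold change 4.30, SE 0.15, adjusted p = 1.9e-11). Ass1, which recycles citrulline to arginine, was at 33.5, 34.2 and 30.9 and at 179, 197 and 184 CPM in the same order (log2 fold change 2.50, SE 0.11, adjusted p = 2.2e-10). In both, the groups were far apart, with no overlap. Of 28 tested genes of the cycle and of itaconate and arginine handling, 22 rose and none fell, with a median of 0.25, and 14 rose and 1 fell under scaling by totals. Mdh2 and Pdha1 rose by 0.51 and 0.44. Nos2 was removed as too low to test. Of 30 tested genes of glycolysis and the hypoxia response, 14 rose and 3 fell (5 under scaling by totals), among them Ldha, Pgk1 and Hk3 at 0.41, 0.39 and 0.40 and the growth factor gene Vegfa at 0.78.

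The nuclear and mitochondrial genes of the respiratory chain moved in opposite directions. Of 50 tested nuclear genes, 35 rose and none fell, with a median of 0.25 (23 rose without WT 1). Atp5b, Atp5o and Atp5a1, subunits of the ATP synthase, rose by 0.40, 0.36 and 0.32. Of the 13 messenger RNAs of the mitochondrial genome, 6 fell and none rose, with a median of -0.29. DKO 3 decided this count: without it 12 fell, with a median of -0.56, and 10 fell with offsets corrected for GC content. mt-Cytb was at 2965, 2671 and 2605 CPM in WT 1 to 3 and at 1855, 1715 and 1839 CPM in DKO 1 to 3 (log2 fold change -0.61, SE 0.06, adjusted p = 8.9e-07). DKO 3 was close to DKO 1 and DKO 2 in this gene. mt-Atp8 was at 256, 200.0 and 201 and at 142, 119 and 746 CPM in the same order, so that DKO 3 was 5.71 times the mean of the other DKO-labelled libraries. Its log2 fold change was 0.62 (adjusted p = 0.49) with DKO 3 and -0.74 (adjusted p = 0.0056) without it. mt-Atp8 was chosen after its values were seen.

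**Figure D3:**
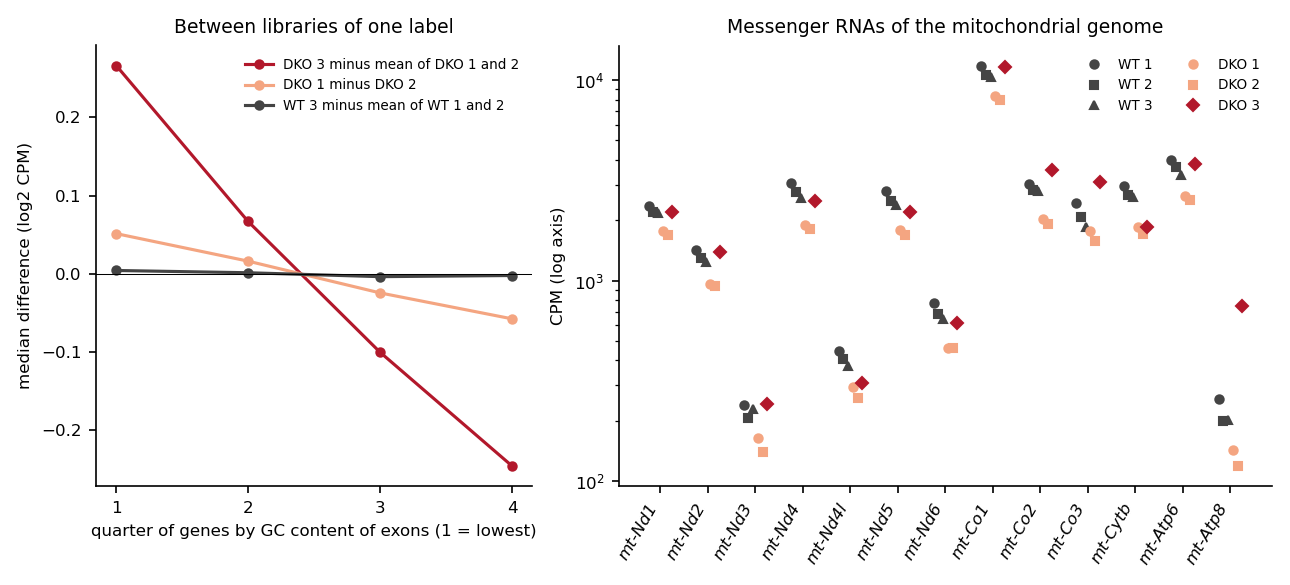
On the left, the median log2 difference between pairs of libraries of the same label over 4 equal groups of genes ordered by GC content; on the right, the level in CPM (log axis) of the 13 mitochondrial messenger RNAs in each WT and DKO-labelled library. DKO 3 falls from 0.27 to -0.25 across these groups, and it lies above DKO 1 and DKO 2 most at mt-Atp8.

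Genes of ribosomes and of protein turnover rose together by small amounts. Of 81 tested cytosolic ribosomal proteins, 64 rose and 1 (Rpl29) fell, with a median of 0.26, and 42 rose without WT 1. Rpsa and Rpl12 rose by 0.51 and 0.54. Many ribosomal protein genes have processed copies elsewhere in the genome, so single values are uncertain. Of 35 tested genes of ribosome biogenesis, 25 rose and none fell, with a median of 0.27 (14 rose under scaling by totals). Odc1, the first enzyme of polyamine synthesis, went from 80.97 ± 4.88 to 171 ± 10.3 CPM (1.08), and Npm1 and Mybbp1a, nucleolar proteins, rose by 0.44 and 0.32. Of 32 tested constitutive proteasome subunits, 26 rose and none fell, with a median of 0.21, and 12 rose under scaling by totals, 13 with the DKO-labelled and WT libraries alone and 16 without WT 1 or without WT 2. Psmd8 and Psmb7 rose by 0.38 and 0.28.

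Cell cycle genes mostly changed by small amounts. Of 32 tested mitosis genes, 9 rose and none fell, with a median of 0.09, a share of 28.1% beside 19.1% of all genes; 5 rose and 2 fell under scaling by totals, and 5 rose without WT 1. Without DKO 3, 8 rose and 6 fell, with a median of 0.01, and 11 rose and 2 fell with offsets corrected for GC content. Ccnb1, the mitotic cyclin, rose from 115 ± 3.24 to 149 ± 14.4 CPM (0.38), and Aurka, a spindle kinase, by 0.31. Of 38 tested genes of DNA replication and S phase, 10 fell and 1 (the inhibitor Cdkn1a, 0.21, chosen after its values were seen) rose, with a median of -0.08. The share that fell was 26.3%, beside 16.3% of all tested genes, and the share that rose was 2.63%, beside 19.1%. Ccnd2, a cyclin of the G1 phase, fell from 69.3 ± 7.62 to 39.1 ± 0.629 CPM (-0.83), Cdkn2c, an inhibitor of its kinase, by 0.58, and E2f2 by 0.47. Under scaling by totals Cdkn1a did not pass the test.

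Antioxidant genes under the factor NRF2 and glutathione genes moved in both directions, more of them downward. Of 31 tested, 3 rose (6 with offsets corrected for GC content) and 10 fell, with a median of -0.02. These are shares of 9.68% and 32.3%, beside 19.1% and 16.3% of all tested genes. Catalase (Cat) fell from 511 ± 34.9 to 338 ± 8.21 CPM (-0.60), Gclc, the first enzyme of glutathione synthesis, by 0.72, and Hmox1, haem oxygenase 1, by 0.45. Sod2, the mitochondrial superoxide dismutase, and Gpx1, a glutathione peroxidase, rose by 0.84 and 0.67. Of 20 tested iron genes, 5 rose and 8 fell. Slc40a1, the iron exporter ferroportin, was at 34.05, 33.8 and 33.2 CPM in WT 1 to 3 and at 14.02, 14.03 and 13.2 CPM in DKO 1 to 3 (log2 fold change -1.29, SE 0.07, adjusted p = 1.2e-09). Ncoa4, which takes ferritin to the lysosome, was at 124, 126 and 134 and at 256, 244 and 305 CPM in the same order (log2 fold change 1.07, SE 0.07, adjusted p = 9.3e-09). The groups were separate in both. Lcn2, which binds the iron carriers of bacteria, had 13, 8 and 4 reads in WT 1 to 3 and 171, 180 and 271 in DKO 1 to 3. It passed the filter on low counts only through the DKO-labelled libraries.

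Stress, death and sorting genes gave counts in both directions. Of 36 tested genes of the unfolded protein and ATF4 responses, 8 rose and 9 fell, shares of 22.2% and 25% beside 19.1% and 16.3% of all tested genes. Manf, a protein of the endoplasmic reticulum, rose by 0.56, and Atf4, Atf5 and Asns, of the amino acid response, fell by 0.29, 0.96 and 0.44. Of 30 tested genes of the BCL2 family and of cell death, 13 rose and 4 fell. Pmaip1, which encodes the death activator NOXA, was at 9.92, 8.95 and 10.6 CPM in WT 1 to 3 and at 26.3, 25.5 and 29.5 CPM in DKO 1 to 3 (log2 fold change 1.47, SE 0.10, adjusted p = 2.3e-08), and all DKO-labelled values were above the WT values. Mlkl, the effector of necroptosis, Casp4, an inflammatory caspase, and Mcl1, a survival protein, rose by 1.06, 1.12 and 0.59.

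Endocytosis and ESCRT genes, which carry ubiquitin-tagged receptors to the lysosome, moved little: 7 of 41 tested rose and 4 fell, beside 35.4% of all genes called, though 12 rose with offsets corrected for GC content, and 8 fell under scaling by totals and 7 without DKO 3. The endocytic adaptor gene Eps15 fell by 0.37, and Snx1, a sorting nexin, and Chmp4b, an ESCRT-III subunit, rose by 0.31 and 0.28. Of 63 tested lysosomal genes, 24 rose and 11 fell. Ctsz and Mcoln2 rose by 0.61 and 1.10, while Ctsd, the protease cathepsin D, had the largest loss in CPM of any named gene, from 10913 ± 417 to 9272 ± 543 CPM (-0.24). Lrp1, an endocytic receptor, and Mpeg1, a pore-forming protein of phagocytes, fell by 0.39 and 0.56 from 4328 ± 116 and 2249 ± 90.4 CPM.

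Other genes among the largest changes belonged to none of the lists. Among the increases were Pdpn, the membrane protein podoplanin (10.1 ± 0.680 to 60.8 ± 4.82 CPM, log2 fold change 2.59), Cyp2s1, a cytochrome P450 (3.19), Flrt3, a membrane protein of cell adhesion (3.49), and Nox1, a NADPH oxidase (2.58). Among the decreases were Dmpk, a protein kinase (174 ± 6.13 to 28.9 ± 5.16 CPM, -2.59), Rtn4rl1 (-2.22), Gdf3, of the TGF-beta family (-2.001), and Apobec1, a cytidine deaminase (889 ± 33.2 to 512 ± 5.88 CPM, -0.80). Pdpn was at 9.59, 10.9 and 9.86 CPM in WT 1 to 3 and at 55.7, 61.2 and 65.3 CPM in DKO 1 to 3. Dmpk was at 171, 181 and 169.8 and at 30.5, 33.1 and 23.2 CPM in the same order. Neither gene overlapped between the groups.

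Against the libraries labelled Cbl-/- and Cbl-b-/-, the DKO-labelled libraries differed in 29.6% and 33.2% of tested genes. These comparisons share the DKO-labelled libraries with the main one. Csf1 was at 2.93, 3.31 and 2.41 CPM in Cbl-/- 1 to 3 and at 2.67, 2.86 and 3.49 CPM in Cbl-b-/- 1 to 3, against 17.5 ± 0.821 CPM in the DKO-labelled libraries (SD, n = 3; log2 fold changes 2.61 and 2.55, adjusted p = 2.9e-08 and 4.0e-08). No library of a single-knockout label reached the DKO-labelled values. Apoe was at 408, 381 and 408 and at 287, 289 and 300.5 CPM in the same libraries, so the DKO-labelled level was lower than both (log2 fold changes -2.88 and -2.43). Irf7 and Traf1 were higher than in Cbl-/- by 1.58 and 0.97 and than in Cbl-b-/- by 1.88 and 1.96. Met was higher than in both, by 1.20 and 3.17.

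Other genes stood closer to 1 of the single-knockout labels. Socs3 in the DKO-labelled libraries differed from Cbl-/- by 0.17 (SE 0.10, adjusted p = 0.22) and from Cbl-b-/- by 1.08 (adjusted p = 9.6e-07). The first difference passed the test without DKO 3, at 0.26 with an adjusted p of 0.048. Cxcl2 differed from Cbl-/- by 0.25 (adjusted p = 0.087) and from Cbl-b-/- by 0.59 (adjusted p = 5.4e-04). A p that misses the threshold does not show that the levels were alike. Ifi44, an interferon target, was at 2.96, 3.02 and 4.76 CPM in Cbl-/- 1 to 3, far below the 38.4 ± 6.64 CPM of WT and the 119 ± 21.5 CPM of the DKO-labelled libraries, which exceeded Cbl-/- by 5.03 (log2, SE 0.19). Ifi44l was at 0.0651, 0.165 and 0 CPM in Cbl-/- 1 to 3 and 29.9 ± 2.15 CPM in the DKO-labelled libraries.

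The complement C5a receptors were high in both single-knockout labels and low in the DKO-labelled libraries. C5ar2 was at 2.69, 2.59 and 2.93 CPM in WT 1 to 3, at 23.5, 24.2 and 26.3 CPM in Cbl-/- 1 to 3, at 15.3, 15.5 and 18.1 CPM in Cbl-b-/- 1 to 3 and at 1.003, 0.859 and 1.31 CPM in DKO 1 to 3. C5ar1 was at 252, 297 and 207, at 708, 751 and 899, at 496, 525 and 529 and at 101, 114 and 97.2 CPM in the same order. In both genes the DKO-labelled values lay below every other library, with log2 fold changes of -1.34 and -1.28 against WT, -4.52 and -2.92 against Cbl-/-, and -3.92 and -2.31 against Cbl-b-/-. Uchl1, a deubiquitinating enzyme, was at 196, 198 and 207 CPM in Cbl-/- 1 to 3, against 24.6 ± 1.80 CPM in the DKO-labelled libraries (-3.03). Gt(ROSA)26Sor was lower in the DKO-labelled libraries than in Cbl-/- (-1.18) and higher than in Cbl-b-/- (2.91). Ifi44, Ifi44l, C5ar2 and C5ar1 were chosen after their values were seen.

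**Figure D4:**
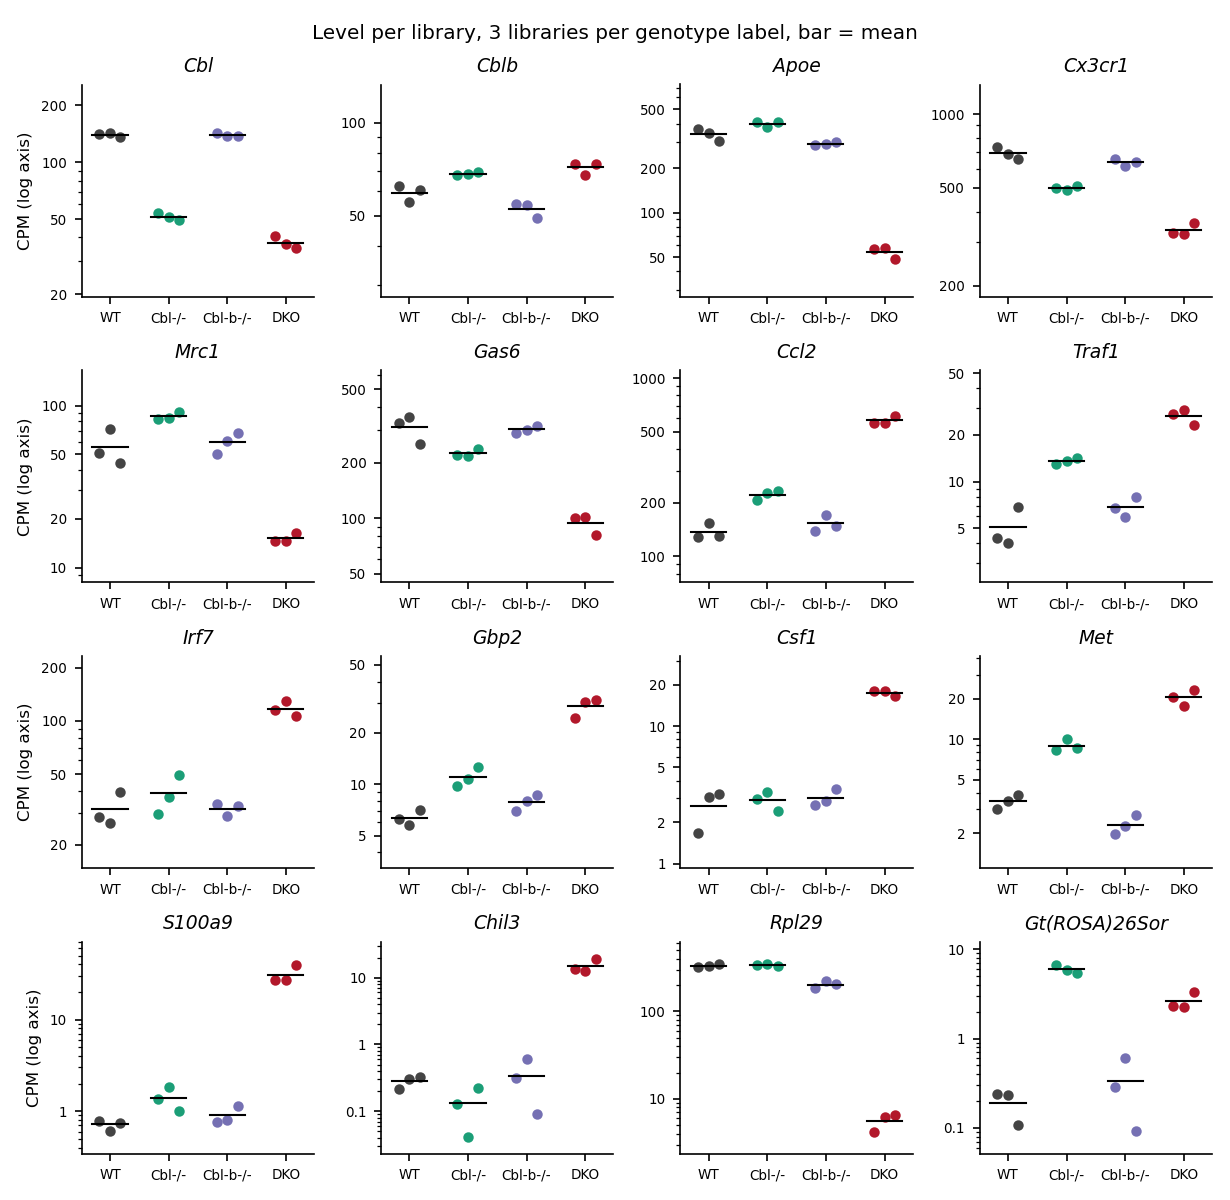
Levels of 16 genes in CPM (log axis) in each of the 12 libraries by label, with bars at the mean of the 3 libraries. The DKO-labelled libraries lie above all WT libraries in Csf1, Irf7 and S100a9 and below them in Apoe, Mrc1 and Rpl29, and Cblb is not lower in them.

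Rpl29, a protein of the large ribosomal subunit, had the largest decrease of all named genes. It lies on the same chromosome as Cbl (chromosome 9, 106429454 to 106431568) and was at 319.9, 332 and 345 CPM in WT 1 to 3 and at 4.24, 6.14 and 6.60 CPM in DKO 1 to 3 (log2 fold change -5.87, SE 0.12, adjusted p = 7.2e-15). In the single-knockout labels it was at 338, 348 and 329 CPM in Cbl-/- 1 to 3 and at 184, 220.2 and 204 CPM in Cbl-b-/- 1 to 3. Rpl29 has processed copies, so its value is uncertain. All 8 other tested genes within 100 kb of Rpl29 were called, in both directions, beside 35.4% of all tested genes. This window was set around the named gene with the largest decrease. Pcbp4, an RNA-binding protein and 1 of the 20 largest decreases, had a log2 fold change of -2.03, Dusp7 of -0.89, Abhd14b of -1.51, Poc1a of -0.51 and Acy1, an aminoacylase, of 1.80. Abhd14a (-1.22) overlaps Abhd14b and Parp3 (-0.42) overlaps Rrp9 (0.36) on the opposite strand, and since the sources used here do not give whether counting used strand, these values are uncertain. Apart from Rpl29 and Pcbp4, the genes of this region were chosen after their values were seen.

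Around the targeted genes, the share of genes called depended on the window. Within 1 Mb of Cbl, 15 of 33 tested genes were called (45.5%), within 5 Mb 27 of 66 (40.9%) and within 10 Mb 38 of 119 (31.9%), beside 35.4% of all genes and 28.8% to 42.3% per autosome. At least 2-fold within 1 Mb of Cbl were 4 of the 33 (12.1%, beside 6.31% of all genes): Mcam (-2.31), Nectin1 (1.23), Oaf (2.22) and Mpzl3, chosen after their values were seen. Within 5 Mb of Cblb, 9 of 20 tested genes were called (45%), none at least 2-fold, and within 10 Mb 20 of 52 (38.5%). The 3 at least 2-fold within 10 Mb, Btla (2.34), Cd200 (2.67) and Nectin3 (-1.52), were chosen after their values were seen.

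**Figure D5:**
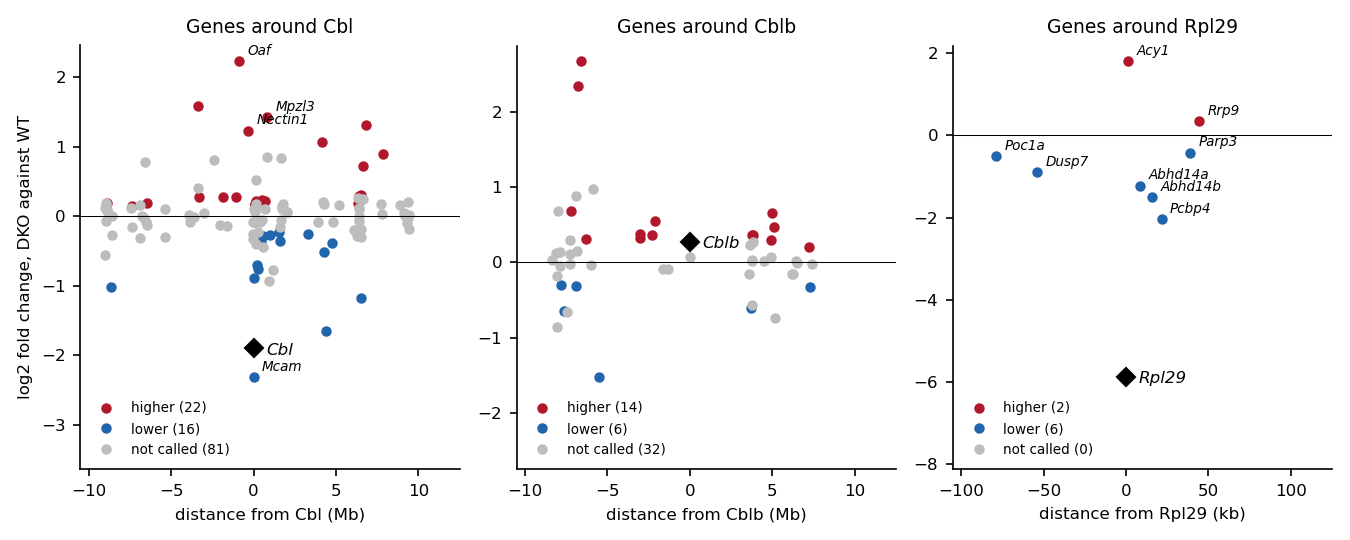
Log2 fold change, DKO-labelled against WT, by the gap between each gene and Cbl or Cblb (up to 10 Mb) or Rpl29 (up to 100 kb), 1 point per tested gene. Calls lie on both sides of 0 in each window, and Rpl29 itself lies at -5.87.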

How the data were processed

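The authors deposited 1 table of unnormalized, whole read counts by gene for the 12 libraries. The genome build was GRCm38.p5, per the submitters' processing notes. Per the labels' protocols the libraries were stranded messenger RNA libraries (TruSeq), while the sources used here do not give the aligner, counting tool or strand setting. The deposited table lists 15555 genes (49 without a symbol), each with at least 1 count in WT 1, so a gene with no read there has no value.

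One edgeR model (edgeR 4.0.16, R 4.3.3) was fitted to the counts of all 12 libraries: filterByExpr left 12671 genes and removed 2884, libraries were scaled by TMM, and the robust quasi-likelihood fit had 1 mean per genotype. Adjusted p-values are those of its F test after Benjamini-Hochberg adjustment across all 12671 genes (threshold 0.05). The standard error is the size of the log2 fold change divided by the square root of F. CPM were computed from the counts with the TMM factors. The fit was tested on simulated counts. limma 3.58.1 and DESeq2 1.42.0 served as alternatives, beside other scalings and filters, a replicate block and the omission of each library.

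Named genes are Cbl and Cblb, the 20 largest called increases and decreases in fold and the 10 largest gains and losses in CPM among genes with a mean log2 CPM of at least 1 and separate libraries, and from each list the members with the smallest adjusted p, up to 4. Some genes that this rule names are not reported here. The lists were described by counts and medians, with no test. The comparison, the lists and the members were chosen with earlier results of these data known. Positions are from GENCODE for GRCm38 and promoters from RefSeq for GRCm38.p6.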

Additional observations from a re-analysis of the deposited data

How the results depend on the processing

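Over 16 alternatives, 240 of the 251 named genes that were called kept their direction and their call in every alternative that gave a value. The 11 that lost the call at least once were Ccl22, Cd28, Cd5, Eif2s3y, Hdc, Kmo, Ndrg2, Ppbp, Siglecf, Socs5 and Vwf. Sparc, which is not among the 251, also lost its call, as given above. The number of genes called was 4485 and ranged from 3355 without WT 1 to 4797 without DKO 3 when 1 library at a time was left out. It was 3582 with the DKO-labelled and WT libraries alone, 3590 with limma voom and a weight per genotype, 4662 with DESeq2 and 5344 with offsets corrected for GC content, an alternative chosen after the data were seen. The counts of 3582 and 3590 came from fits that left out the other labels or gave each label its own weight. Over the 9827 genes with at least 5 CPM in 3 libraries, 218 were at least 2-fold higher and 112 lower, in place of 520 and 279 of 12671. These numbers fell by more than the number tested, so many of the genes at least 2-fold different lay below that level. The value that changed direction was that of mt-Atp8, which ranged from -0.74 without DKO 3 to 1.02 without DKO 2. With the replicate number as a block, 4280 genes were called, 506 at least 2-fold higher and 272 lower. Same-numbered DKO-labelled and WT libraries did not deviate together (r across genes of -0.009, 0.044 and -0.024). These values show no pairing by number, but 3 libraries per label are too few to exclude it. Genes near the filter on low counts, such as Prtn3 with 1, 0 and 0 reads in the WT libraries, have levels that depth limits.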

Other observations

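Genes of signalling and transcription outside the lists were also among the larger changes. Hes1, a target of Notch signalling that represses other genes, was at 3.55, 3.002 and 2.36 CPM in WT 1 to 3 and at 0.111, 0.286 and 0.436 CPM in DKO 1 to 3 (log2 fold change -3.38, SE 0.43, adjusted p = 1.2e-05). It was lower in every DKO-labelled library than in any WT library and was chosen after its values were seen. Dlx2, a homeobox factor, fell from 3.17 ± 0.110 to 0.772 ± 0.491 CPM (-2.07), while the zinc finger gene Zfp462 rose from 1.15 ± 0.0988 to 7.33 ± 0.442 CPM (2.67). Pianp rose by 2.82, and Tpbgl, Sorbs3 and Ppp1r9a fell by 2.05, 1.97 and 1.90. Among abundant transcripts, Gpnmb, a membrane glycoprotein of lipid-laden macrophages, rose from 4118 ± 237 to 5761 ± 275 CPM (0.48), Psap, the precursor of the saposins, by 0.29, and Lgals3, which encodes galectin-3, by 0.41.

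Some markers of other cell types that differed or did not pass the test were low in both groups. Kit and Gata2, of mast cells and progenitors, went from 0.412 ± 0.0972 and 0.360 ± 0.130 CPM in WT to 1.73 ± 0.241 and 1.68 ± 0.263 CPM in DKO-labelled libraries. Col1a1 and Col1a2, of stromal cells, went from 1.68 ± 0.835 and 1.38 ± 0.568 to 6.81 ± 1.03 and 5.39 ± 0.998 CPM. Ighm, an immunoglobulin heavy chain, rose by 0.73, while Cd79b and Cd22, also of B cells, did not pass the test (-0.02 and -0.15).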
